A study of Homo sapiens with 10 samples.

Results

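BAX, BAK1 and BOK encode the pore-forming effectors of mitochondrial apoptosis, and VDAC1, VDAC2 and VDAC3 encode the voltage-dependent anion channels of the outer mitochondrial membrane. These 6 genes of 63677 counted identifiers were compared between RS4;11 lines that are sensitive (VENsens) or insensitive (VENins) to venetoclax (VEN). They were selected by name and on measured values of these same libraries, including the ratio of BAX to BAK1. Their differences between VENsens and VENins lines are therefore given as a description, without a test. Of the 6 genes, 5 were among the 16756 that passed a filter on low counts, and BOK was not.

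RS4;11 is an established line of acute lymphoblastic leukemia of B-cell precursors (BCP-ALL), and VEN inhibits the anti-apoptotic protein BCL-2. VENins lines had been cultured for long with VEN at doses that were stepped up, and VENsens lines are controls that were given DMSO, in which VEN is dissolved, with 5 lines of each kind. RNA of each line was sequenced as 1 library, so that replicates are separately grown lines of a single parental line. The spread between them therefore covers the growth and sequencing of lines, and not patients or other leukemias. In bulk RNA, fewer cells of a type and less RNA per cell cannot be told apart.

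The files hold 38491516 to 52960365 reads per library, of which 20631907 to 28323643 were counted on genes in VENsens and 21145316 to 25394653 in VENins lines. VENins line 5 stood apart from the other lines of its condition. The chi-square over degrees of freedom of its counts was 13.4 to 14.4 against the other VENins lines, which differed from one another by 4.33 to 9.75. VENsens lines differed from one another by 1.93 to 9.89. Fitted log2 fold changes, ratios and shares of the members in the main setting are therefore also given without line pair 5. The same was done for pathway genes that DESeq2 called and for other genes whose printed log2 fold change moved by more than 0.08. Leaving out pair 5 also drops VENsens line 5, which differed from the other VENsens lines by 1.93 to 6.08. A shift can thus stem from either line. Line numbers did not pair the samples in the data, so counts of line pairs depend on the numbering. Where the groups do not overlap, all pairs have the same sign by necessity.

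Markers of cell types were read first. All 13 listed markers of B-cell precursors were at 1 CPM (read counts relative to library size, scaled between libraries by TMM) or more, led by IGLL1 at a mean of 723 CPM. The 13 include FLT3, MEIS1 and HOXA9, which are not confined to B-cell precursors. The summed level of the 13 was 4177 to 4304 CPM in VENsens and 4100 to 4563 CPM in VENins lines. Of the 13, 7 had a log2 fold change above 0 and 6 below, with a median of 0.04, and 6 had an unadjusted p under 0.05, beside 16.2% of all tested genes. Without pair 5 the 6 became 2. PAX5, a transcription factor of B cells named after its values were seen, was the 1 marker of all lists with an adjusted p under the threshold (log2 fold change -0.31, SE 0.05, adjusted p = 0.0272 in edgeR's quasi-likelihood test, lower in all 5 line pairs, and log2 fold change -0.32 without pair 5). DESeq2 also called it. Without pair 2, 3 or 5 edgeR did not call it (adjusted p = 0.242, 0.0597 and 0.0647), and without pair 4 it called PAX5 and DNTT. The log2 fold change of DNTT was -0.36 with all pairs and turned to 0.05 (SE 0.58) without pair 5. T cell markers reached a sum of at most 1.30 CPM, with CD3E the most abundant at 0.859 CPM and CD3D and CD2 at 3 counts or fewer in each library. Erythroid HBA1 and HBA2 were listed at 0 in all libraries, and HBB stood at 0.00485 CPM. Of the 6 myeloid markers, 3 were at 1 CPM or more, with CSF1R at 9.51 CPM and a sum of 14.1 to 17.6 CPM in VENsens and 14.5 to 19.5 CPM in VENins lines. Of the 4 stromal markers, DCN was listed at 0 and PDGFRB was highest at 13.95 CPM, with sums of 16.2 to 18.1 CPM and 13.2 to 19.0 CPM.

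BAX and BAK are held in check by BCL-2, BCL-XL and MCL-1. When BH3-only proteins such as BIM engage these guardians or the effectors themselves, BAX and BAK assemble in the outer membrane and open pores that release cytochrome c, which starts the caspase cascade. VDAC channels pass metabolites and ions across the same membrane, and VDAC2 is known to bind BAK and to take part in bringing BAX and BAK to mitochondria. VEN acts upstream of this step, by displacing BH3-only proteins from BCL-2.

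Of the 5 members that passed the filter, BAX differed most between the conditions. This effector, which shuttles between the cytosol and mitochondria, is encoded on chromosome 19 (ENSG00000087088, chr19:48954815-48961798 in GENCODE 29 on GRCh38, whereas the reads were counted on GRCh37). BAX stood at 38.6, 33.6, 44.0, 36.1 and 41.1 CPM in VENsens lines 1 to 5. In VENins lines 1 to 5 it stood at 25.6, 28.7, 22.7, 25.1 and 27.5 CPM. All VENins lines lay below all VENsens lines, with the nearest values at 28.7 CPM in VENins line 2 and 33.6 CPM in VENsens line 2. The means were 38.7 ± 4.08 and 25.9 ± 2.34 CPM (SD, n = 5 each), a difference of -33.0% in VENins lines. These are levels of RNA, whereas the study's Western blots detected no BAX protein in VENins lines. The fitted log2 fold change was -0.58 (SE 0.09). Between lines of the same number the difference ran from -0.95 in pair 3 to -0.22 in pair 2, and without pair 5 the log2 fold change was -0.58. In VENsens lines the order of BAX levels followed the order of total gene counts, from line 2 with the fewest to line 3 with the most. In VENins lines it did not, and the part of depth in these levels was not tested.

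BAK1 encodes BAK, which resides in the outer membrane, and lies on chromosome 6 (ENSG00000030110, chr6:33572547-33580293). BAK1 stood at 17.9, 14.7, 16.4, 15.8 and 15.4 CPM in VENsens lines 1 to 5. In VENins lines it was measured at 17.3, 16.4, 18.4, 15.9 and 17.7 CPM. The groups overlapped, with VENsens line 1 above 4 of the 5 VENins lines. The means of 16.0 ± 1.22 and 17.1 ± 1.02 CPM (SD, n = 5 each) gave a log2 fold change of 0.10 (SE 0.07), with 4 of 5 pairs higher, and of 0.07 without pair 5. The difference of BAK1 between the conditions was thus about the size of the spread between lines of 1 condition.

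BOK encodes the least studied effector of this family, whose protein is kept low by proteasomal turnover. It lies on chromosome 2 (ENSG00000176720, chr2:241551424-241574138). BOK held 1 to 11 counts per library, corresponding to 0.125, 0.0485, 0.211, 0.217 and 0.439 CPM in VENsens and 0.282, 0.204, 0.244, 0.118 and 0.0436 CPM in VENins lines 1 to 5. The groups overlapped, and the means of 0.208 and 0.178 CPM turned to 0.150 and 0.212 CPM without pair 5, so no direction is given. An antisense gene, BOK-AS1, overlaps BOK and held at most 5 counts, and the library kit does not mark strand, so reads of both could not be told apart.

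**Figure D1:**
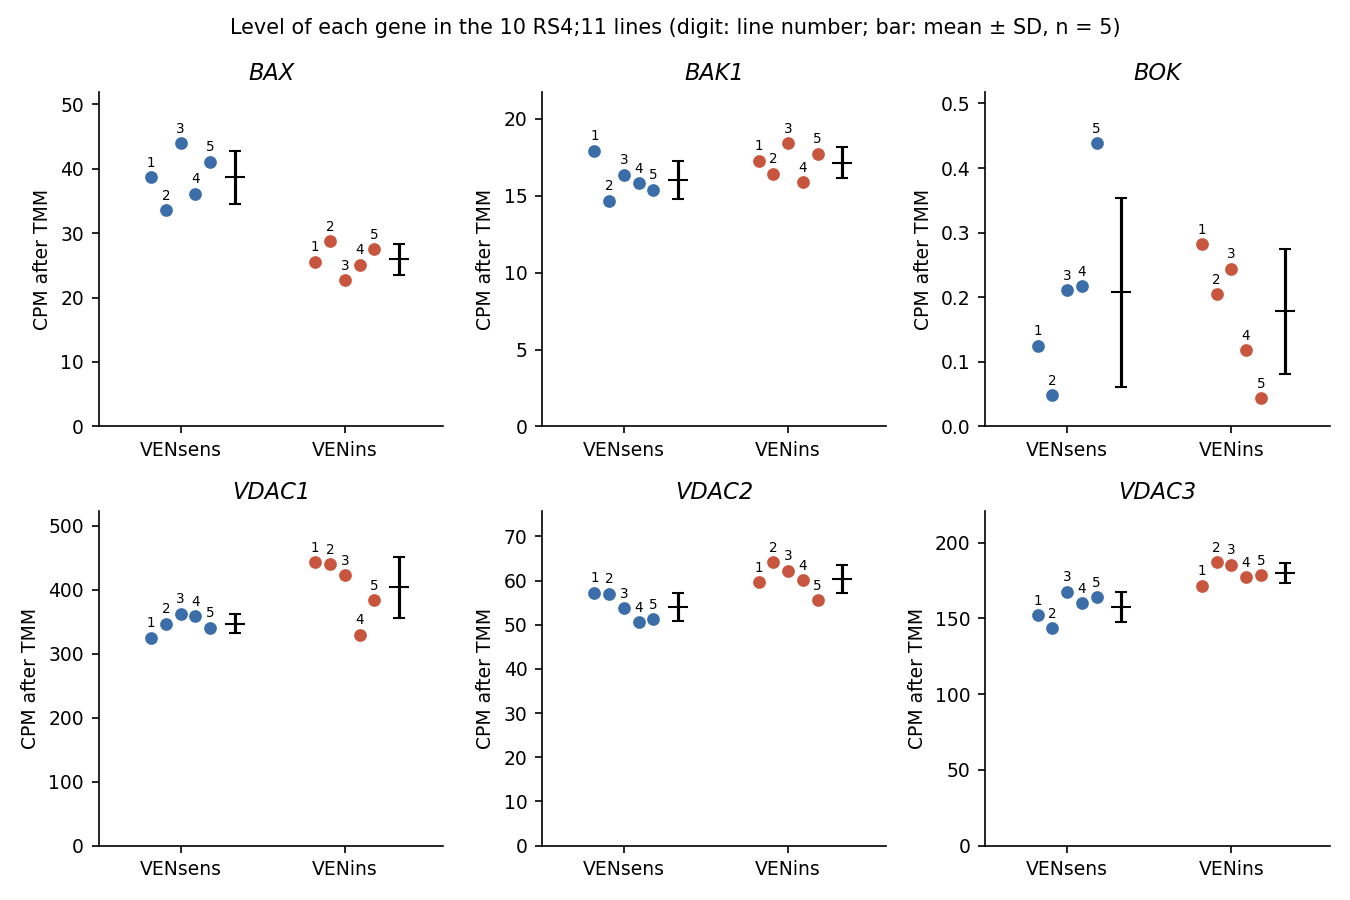
Level of each of the 6 genes in CPM after TMM scaling (vertical axis, starting at 0) in the 5 VENsens (blue) and 5 VENins lines (red). Digits give the line number and black bars the mean ± SD (n = 5). BAX lies between 33.6 and 44.0 CPM in VENsens and between 22.7 and 28.7 CPM in VENins lines, VDAC3 is higher in VENins lines without overlap, and the other 4 genes overlap.

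VDAC1 is the channel through which hexokinase docks on mitochondria, and lies on chromosome 5 (ENSG00000213585, chr5:133971915-134005133). VDAC1 stood at 324.9, 346.7, 362.9, 358.6 and 341 CPM in VENsens lines 1 to 5. In VENins lines it stood at 443, 440.2, 422.6, 329.7 and 384 CPM. VENins lines 1, 2, 3 and 5 exceeded all VENsens lines, whereas VENins line 4 lay within the VENsens range. The means were 346.8 ± 15.1 and 403.9 ± 47.7 CPM (SD, n = 5 each). The fitted log2 fold change was 0.21 (SE 0.07). Without pair 4 it was 0.29, and without pair 5 it was 0.22.

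VDAC2, the channel that binds BAK, lies on chromosome 10 (ENSG00000165637, chr10:75210154-75231448). VDAC2 stood at 57.3, 57.0, 53.8, 50.6 and 51.2 CPM in VENsens lines 1 to 5. In VENins lines it was measured at 59.7, 64.2, 62.2, 60.04 and 55.5 CPM. VENins line 5 fell below VENsens lines 1 and 2, so the groups overlapped. Each VENins line exceeded the VENsens line of its number, but the numbers did not pair the lines in the data. Means of 54.0 ± 3.13 and 60.3 ± 3.23 CPM (SD, n = 5 each) gave a log2 fold change of 0.16 (SE 0.06), and 0.17 without pair 5, where the groups no longer overlapped.

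VDAC3 encodes the channel with the least defined role in cell death and lies on chromosome 8 (ENSG00000078668). VDAC3 stood at 152, 143.4, 167.7, 160.1 and 164.1 CPM in VENsens lines 1 to 5. In VENins lines it stood at 171.4, 187, 185.5, 177 and 178.4 CPM. All VENins lines lay above all VENsens lines, but by a narrow gap between 167.7 CPM in VENsens line 3 and 171.4 CPM in VENins line 1. The means were 157.4 ± 9.81 and 179.9 ± 6.42 CPM (SD, n = 5 each). The log2 fold change came to 0.19 (SE 0.05), or 0.21 without pair 5.

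Among the 5 members that passed the filter, BAX was thus lower and VDAC3 higher in VENins lines without overlap. Of all 16756 tested genes, 2.3% had all VENins lines below all VENsens lines and 2.36% had them above. Over all tested genes, 33 (0.197%) had an adjusted p under 0.05 in edgeR's quasi-likelihood test, and 57, 6, 17, 331 and 9 when line pair 1, 2, 3, 4 or 5 was left out. Since the members were selected on this contrast, their own p are not given and nothing is read from these counts. The median log2 fold change of all tested genes was 0.00.

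**Figure D2:**
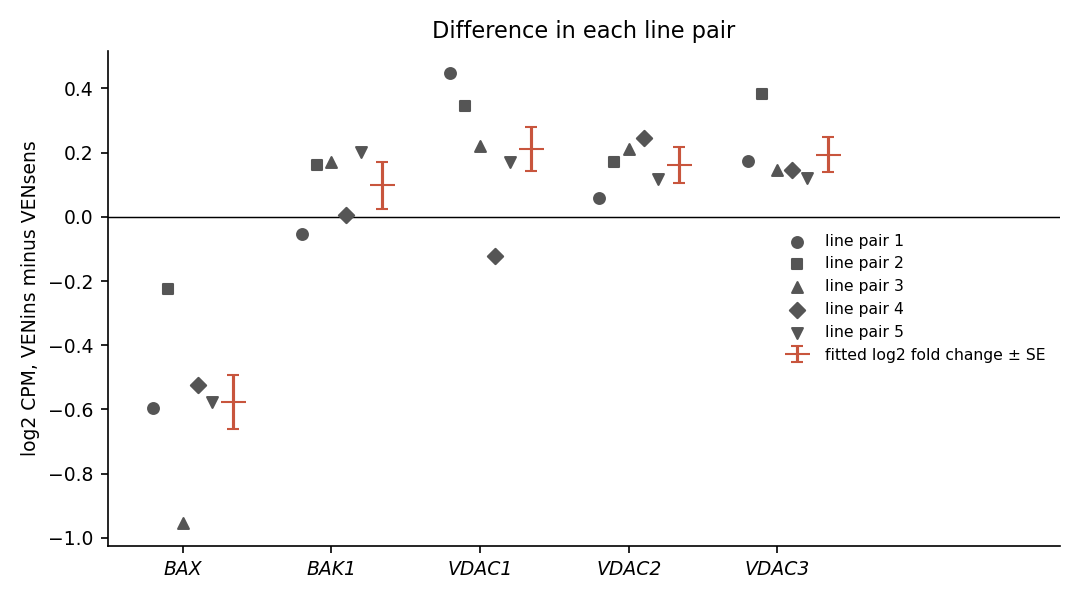
Difference in log2 CPM between the VENins and the VENsens line of the same number (grey symbols, vertical axis) for the 5 members that passed the filter, with the fitted log2 fold change ± SE in red. BAX is below 0 in all 5 pairs, VDAC2 and VDAC3 are above 0 in all 5, and VDAC1 falls to -0.12 in pair 4.

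Levels of different genes were compared per kb, with the length taken as the union of all annotated exons. In VENsens lines the order was VDAC1 (109.6 ± 4.78 CPM per kb), VDAC3 (50.1 ± 3.12), VDAC2 (19.1 ± 1.11), BAX (14.9 ± 1.58), BAK1 (7.25 ± 0.553) and BOK (0.0767 ± 0.0540; SD, n = 5 each). The order in VENins lines was identical, at 127.7 ± 15.1, 57.3 ± 2.04, 21.3 ± 1.14, 10.02 ± 0.905, 7.75 ± 0.460 and 0.0658 ± 0.0357 CPM per kb. Neighbours in the order did not overlap in either condition on this length. With the median transcript length, an alternative chosen after seeing the data, the order of the means was kept, but VDAC2 (65.8 ± 3.82 CPM per kb) and BAX (57.1 ± 6.03) overlapped in VENsens lines. The difference between BAX and BAK1 narrowed in VENins lines on both lengths.

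Per kb of exon, the ratio of BAX to BAK1 was 1.84, 1.96, 2.297, 1.95 and 2.28 in VENsens lines 1 to 5. In VENins lines 1 to 5 the ratio was 1.26, 1.495, 1.05, 1.35 and 1.33. On these counts BAX exceeded BAK1 per kb in all 10 libraries, least in VENins line 3, and the ratios of the conditions did not overlap. With the counts of BAK1P1, an intronless copy of BAK1, added to BAK1, the ratio stayed above 1 in all VENsens lines (1.55 ± 0.174), but in VENins lines 1 to 5 it was 0.998, 1.097, 0.810, 0.986 and 0.986, above 1 in line 2 alone. Which gene is higher per kb of exon in VENins lines thus depends on where these reads belong. The mean ratio was 2.07 ± 0.209 for VENsens against 1.30 ± 0.162 for VENins lines (SD, n = 5 each), a mean difference of -0.67 in log2 over the 5 pairs, and -0.65 without pair 5. Without pair 5 the mean ratios were 2.01 ± 0.197 and 1.29 ± 0.186 (SD, n = 4 each). On the median transcript length the ratio was 7.62 ± 0.771 and 4.79 ± 0.597, so the ratio's level depends on the length taken, which cancels from the log2 difference. The ratio of reads, with no length, was 2.42 ± 0.244 and 1.52 ± 0.189. BAK1 also lies beside a stretch of chromosome 6 where most genes were listed at 0, and whether its own counts are complete, on which this ratio and the shares of the effectors rest, was not tested.

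**Figure D3:**
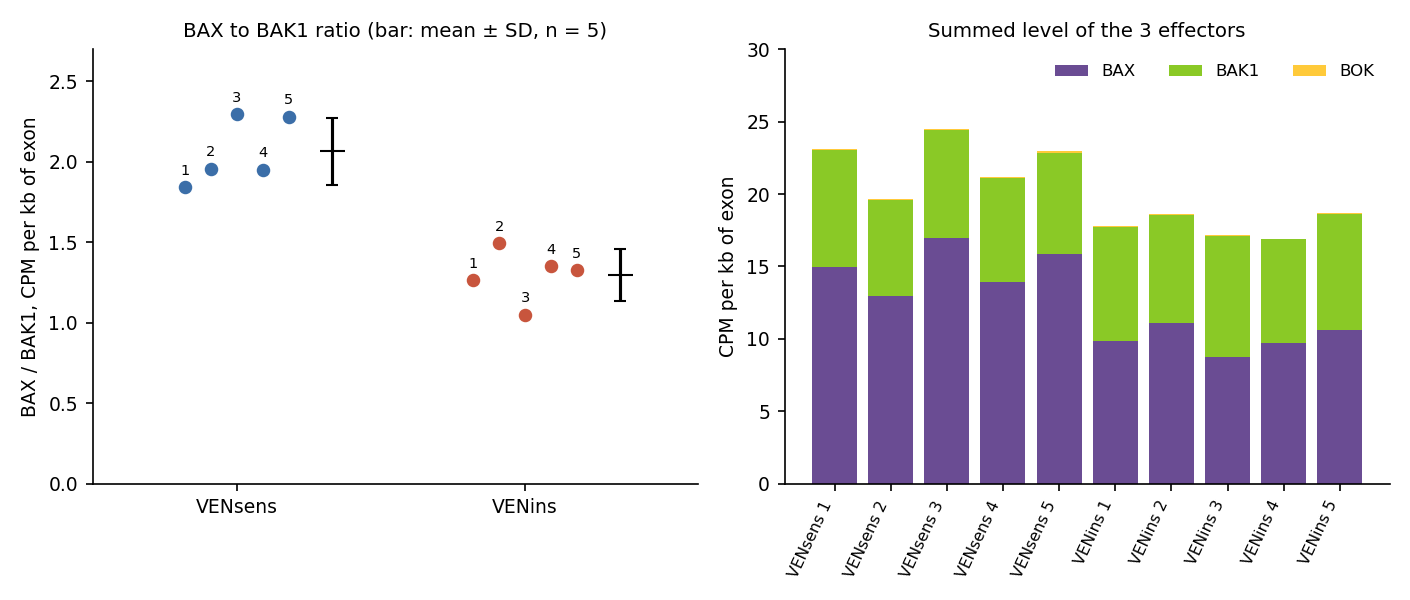
Left, ratio of BAX to BAK1 in CPM per kb of exon in each line (digits, line number; bars, mean ± SD, n = 5), with VENsens lines between 1.84 and 2.297 and VENins lines between 1.05 and 1.495. Right, CPM per kb of exon of BAX, BAK1 and BOK stacked for each library, with BOK barely visible. Counts of BAK1P1, with which BAK1 would exceed BAX in VENins lines 1, 3, 4 and 5, are not included.

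Within the effector trio, BAX made up 67.0 ± 2.09% of the summed CPM per kb in VENsens and 56.1 ± 3.23% in VENins lines, and BAK1 32.6 ± 2.24% and 43.5 ± 3.14%. BOK contributed 0.338 ± 0.232% and 0.371 ± 0.203% (SD, n = 5 each). The summed level of the trio was 22.3 ± 1.89 CPM per kb in VENsens and 17.8 ± 0.800 in VENins lines, and the lowest VENsens line, at 19.6, lay above the highest VENins line, at 18.7. With the counts of BAK1P1 added to BAK1, BAX made up 60.4 ± 2.53% and 49.1 ± 2.77%, so that it was no longer the larger part in VENins lines on average. With the median transcript length, BAX made up 88.1 ± 0.944% and 82.3 ± 1.97%. Without pair 5 the shares on the union of exons were 66.5 ± 2.04% and 55.9 ± 3.68% for BAX, 33.2 ± 2.09% and 43.7 ± 3.61% for BAK1 and 0.247 ± 0.127% and 0.443 ± 0.144% for BOK (SD, n = 4 each). The VDAC trio had a similar mean composition in both conditions, with VDAC1 at 61.3 ± 1.09% and 61.7 ± 2.79%, VDAC2 at 10.7 ± 0.901% and 10.4 ± 0.753%, and VDAC3 at 28.01 ± 1.23% and 27.9 ± 2.13%. With all lines these shares differed between the conditions by less than their SD over lines, and the sign of each difference turned when pair 1 was left out. Without pair 5 the shares were 61.5 ± 1.15% and 61.8 ± 3.21% for VDAC1, 10.8 ± 0.983% and 10.5 ± 0.820% for VDAC2, and 27.7 ± 1.14% and 27.7 ± 2.40% for VDAC3. Without pair 4 the differences were 1.78, -0.859 and -0.924 percentage points for VDAC1, VDAC2 and VDAC3, beside 0.451, -0.317 and -0.134 with all pairs. The summed level of the channels was 178.9 ± 6.10 CPM per kb in VENsens and 206.3 ± 16.3 in VENins lines, which overlapped because VENins line 4 was at 181.8.

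The effectors were also set against their binding partners, by RNA alone. The study's Western blots showed no BAX, more MCL-1 and unchanged BCL-2 protein in VENins lines. The ratios below therefore do not stand for ratios of the proteins. Per kb of exon, the ratio of BAX to BCL2 was 0.421 ± 0.0669 for VENsens against 0.309 ± 0.0386 for VENins lines (SD, n = 5 each), with overlap. Its ratio to MCL1 was 0.286 ± 0.0392 and 0.190 ± 0.0215, without overlap. Without pair 5 these were 0.418 ± 0.0768 and 0.300 ± 0.0370, and 0.280 ± 0.0431 and 0.182 ± 0.0156 (SD, n = 4 each). The ratio of BAK1 to BCL2 was 0.204 ± 0.0285 and 0.239 ± 0.0166, higher in 4 of 5 pairs and with overlap. The ratio of BAK1 to MCL1 was 0.139 ± 0.0169 and 0.147 ± 0.0138, and that of VDAC2 to BAK1 was 2.64 ± 0.226 and 2.76 ± 0.245, both with overlap and higher in 4 of 5 pairs. Without pair 5 the ratio of BAK1 to BCL2 was 0.208 ± 0.0316 and 0.233 ± 0.0121, that of BAK1 to MCL1 0.140 ± 0.0193 and 0.142 ± 0.0104, and that of VDAC2 to BAK1 2.65 ± 0.259 and 2.84 ± 0.199.

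The members also differed in how much they varied between lines of 1 condition. The coefficient of variation of BAX was 10.6% over the VENsens and 9.03% over the VENins lines, where counting alone would give 3.31% and 4.05%. For BAK1 the spread, at 7.62% and 5.93%, was close to the counting error of 5.12% and 4.97%. VDAC1 varied by 4.36% in VENsens and 11.8% in VENins lines, against 1.10% and 1.03% from counting. VDAC2 varied by 5.804% and 5.35%, against 2.78% and 2.65% from counting, and VDAC3 by 6.23% and 3.57%, against 1.63% and 1.53%, both more than VDAC1 in VENsens and less in VENins lines. Single lines carried part of this spread, which was 4.598% for BAK1 and 2.89% for VDAC1 without VENsens line 1, 6.43% for VDAC1 without VENins line 4 and 3.38% for VDAC2 without VENins line 5. The fitted biological coefficient of variation was 9.31% for BAX, 7.62% for BAK1, 8.05% for VDAC1, 6.397% for VDAC2 and 6.57% for VDAC3, beside a median of 8.57% over all tested genes.

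Reads of VDAC1, VDAC3 and BAK1 may be shared with intronless copies elsewhere in the genome. The submitters' notes name Bowtie2, which does not split a read across an intron, so that reads over exon junctions may match a processed copy better than the gene. VDAC1 has 12 annotated copies that were considered here, with 26.4% of its own counts in all, most of them on VDAC1P1 (1440 to 2130 counts per library) and VDAC1P2 (442 to 661). VDAC3P1 held 740 to 1076 counts per library, 23.4% of the VDAC3 counts, and BAK1P1 98 to 150, 33.1% of those of BAK1. The 4 copies of VDAC2 held 0.0365% of its counts, and BAX and BOK have no annotated copy. The levels of VDAC1, VDAC3 and BAK1 are therefore uncertain. Those of BAX and VDAC2 may also lack reads over exon junctions, which had no abundant copy to match. By how much each level is off was not measured, since reads not aligned or set aside for low alignment quality name no gene. The copies themselves had log2 fold changes of 0.19 (SE 0.07) for VDAC1P1, 0.15 (SE 0.09) for VDAC1P2, 0.16 (SE 0.06) for VDAC3P1 and 0.06 (SE 0.11) for BAK1P1. Without pair 5 these were 0.20, 0.14, 0.19 and 0.01. With the copies' counts added, the log2 fold changes were 0.21 for VDAC1, 0.19 for VDAC3 and 0.09 for BAK1.

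The promoters of both main effectors are shown because BAX and BAK1 differed in how they stood between the conditions. From RefSeq (GRCh38.p14), 250 bases before the start of each gene were searched for CACGTG, an E-box that reads the same on both strands, and matches are in capitals. The BAX window is chr19:48954625-48954874 on the plus strand and the BAK1 window chr6:33580277-33580526 on the minus strand.
BAX: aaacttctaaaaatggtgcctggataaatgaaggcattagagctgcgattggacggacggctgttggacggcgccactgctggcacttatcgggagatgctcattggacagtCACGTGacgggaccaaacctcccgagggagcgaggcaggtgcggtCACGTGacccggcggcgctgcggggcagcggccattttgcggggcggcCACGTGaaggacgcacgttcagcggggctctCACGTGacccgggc
BAK1: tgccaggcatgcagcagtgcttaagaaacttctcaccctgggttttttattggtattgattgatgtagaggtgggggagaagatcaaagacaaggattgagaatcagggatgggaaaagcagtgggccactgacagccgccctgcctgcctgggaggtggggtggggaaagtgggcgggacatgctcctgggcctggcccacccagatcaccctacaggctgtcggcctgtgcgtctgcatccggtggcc
The BAX window holds 4 matches, which begin 138, 93, 45 and 14 bases before the start, and the BAK1 window holds 0. These starts are those of RefSeq. The last 60 bases of the BAX window, in which 2 of the matches begin, and the last 17 of the BAK1 window lie inside the genes as GENCODE 29 places them. Of 27305 promoter windows of this length, 6.49% hold at least 1 match and 0.0879% hold 3 or more. The 885 tested genes with at least 1 match had a median log2 fold change of -0.01, beside 0.00 over all 9918 tested genes with a window. The matches describe the letters of these windows and nothing beyond them.

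The pathway around the effectors was covered by 95 further genes in 8 lists written from general knowledge, of which 85 were tested. None of the 85 had an adjusted p under 0.05 in edgeR's quasi-likelihood test. In the same test 21 of the 85 had an unadjusted p under 0.05, beside 2710 (16.2%) of all 16756 genes. The 21 became 16, 7, 15, 11 and 15 when line pair 1, 2, 3, 4 or 5 was left out, and ranges of this kind are given for each list below. The count of each list stands beside the same 16.2%. Genes without overlap stand beside 2.3% (lower) and 2.36% (higher) of all tested genes. DESeq2 called 3 of the 85 when line numbers were blocked (BMF, ITPR1 and MAVS) and 6 when they were not (these and BCL2L11, SESN1 and XPC), beside 219 and 726 of all 16756. Without the block edgeR called MAVS, beside 149 of all 16756 genes. Without line pair 4 it called ITPR1 and SESN1, beside 331 of all 16768 genes tested there. Of the 85, 45 had a log2 fold change above 0 and 40 below, with a median of 0.01, and of 0.03 without pair 5. Leaving out pair 5 moved their log2 fold changes by -0.15 to 0.20.

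Of the 6 survival genes, which encode the guardians of BAX and BAK, 4 were tested and 0 were called by edgeR or DESeq2, 1 with an unadjusted p under 0.05 in edgeR (0 to 1 with a line pair left out), with a median log2 fold change of -0.05. BCL2, the target of VEN, had means of 421.4 ± 29.7 (VENsens) and 382.3 ± 18.1 CPM (VENins) (log2 fold change -0.14, SE 0.06, adjusted p = 0.267 in edgeR's quasi-likelihood test). MCL1 was at 229.8 ± 11.4 and 231.7 ± 15.5 CPM (0.01, SE 0.06), BCL2L1, which encodes BCL-XL, at 69.3 ± 3.27 and 68.9 ± 3.70 CPM (-0.01, SE 0.06), and BCL2L2 at 24.5 ± 0.872 and 23.1 ± 2.10 CPM (-0.08, SE 0.07). BCL2A1 and BCL2L10 had at most 3 counts per library and were not tested.

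Of the 8 BH3-only genes, which encode the activators and sensitizers of the effectors, 7 were tested and edgeR called 0, with 3 at an unadjusted p under 0.05 (2 to 3 with a line pair left out), while DESeq2 called BMF with the block, and BMF and BCL2L11 without it. BMF stood at 57.8 ± 10.3 and 46.0 ± 3.38 CPM (log2 fold change -0.32, SE 0.08, adjusted p = 0.0878 in edgeR's quasi-likelihood test), lower in all 5 pairs without overlap, and at -0.36 without pair 5. BCL2L11, which encodes BIM, stood at 44.3 ± 2.44 and 38.2 ± 1.97 CPM (-0.21, SE 0.06, adjusted p = 0.138 in the same test), also lower in all 5 pairs without overlap, and at -0.19 without pair 5. BID was at 123.8 ± 3.53 and 134.5 ± 6.07 CPM (0.12, SE 0.05), higher in all 5 pairs without overlap, and PMAIP1, which encodes NOXA, at 166 ± 11.9 and 170.4 ± 4.10 CPM (0.04, SE 0.05). BBC3, which encodes PUMA, had a log2 fold change of -0.15 (SE 0.10), or -0.29 (SE 0.08) without pair 5, BAD of 0.16 (SE 0.08) and BIK of 0.17 (SE 0.11). HRK had at most 1 count per library.

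**Figure D4:**
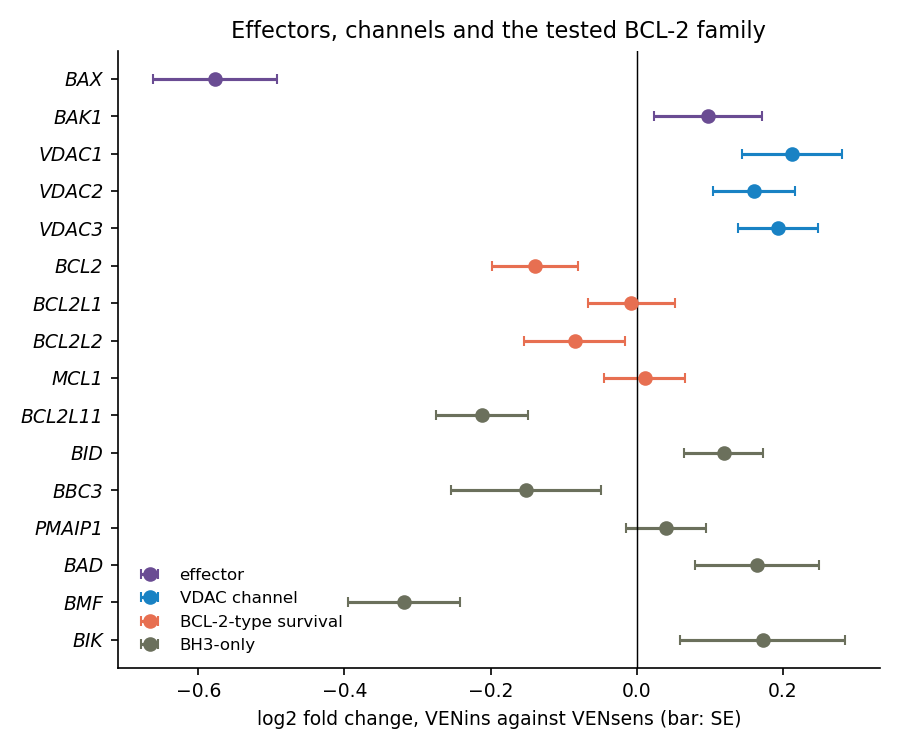
Log2 fold change of VENins against VENsens lines (horizontal axis, bars SE) for the effectors, the VDAC channels and the tested survival and BH3-only genes. BAX, at -0.58, lies farthest from 0, followed by BMF at -0.32, and the 3 VDAC genes lie between 0.16 and 0.21.

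Of 16 genes for effector binding and turnover, 14 were tested and edgeR called 0, with 3 at an unadjusted p under 0.05 (1 to 2 with a line pair left out), while DESeq2 called ITPR1 with and without the block. ITPR1, a calcium release channel of the endoplasmic reticulum, came nearest, at 13.5 ± 1.84 and 9.26 ± 2.67 CPM (log2 fold change -0.56, SE 0.12, adjusted p = 0.0691 in edgeR's quasi-likelihood test), lower in 4 of 5 pairs, and at -0.46 without pair 5. MFF, a receptor for mitochondrial fission, had a log2 fold change of 0.12 (SE 0.06). Among the 10 released factors and apoptosome genes, all tested, with 0 called by edgeR or DESeq2 and 3 at an unadjusted p under 0.05 in edgeR (0 without pair 2, 1 without pair 5), CYCS, which encodes cytochrome c, stood at 52.6 ± 2.10 and 60.8 ± 6.64 CPM (0.20, SE 0.07, adjusted p = 0.185 in the same test) and ENDOG, a nuclease, at 8.07 ± 1.01 and 10.3 ± 2.58 CPM (0.33, SE 0.12, adjusted p = 0.194), which without pair 5 were at 0.26 and 0.19.

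Among 11 partners of VDAC channels, 9 were tested and 0 were called by edgeR or DESeq2, 2 with an unadjusted p under 0.05 in edgeR (0 without pair 1 or pair 5), with a median log2 fold change of 0.04. HK2, a hexokinase that docks on VDAC, stood at 145.7 ± 4.80 and 133.2 ± 7.09 CPM (-0.13, SE 0.05, adjusted p = 0.244 in edgeR's quasi-likelihood test), lower in all 5 pairs, and MCU, the calcium uniporter, had a log2 fold change of -0.16 (SE 0.07), or -0.11 without pair 5. Of 14 import and assembly genes of the outer membrane, 12 were tested and 0 were called by edgeR or DESeq2, 1 with an unadjusted p under 0.05 in edgeR (0 to 1 with a line pair left out), with TOMM40, the import pore, at 0.16 (SE 0.07) and MTX2, of the assembly machinery, at 0.12 (SE 0.06). Of 11 other outer membrane proteins, all were tested and edgeR called 0 with the block, 2 with an unadjusted p under 0.05 (1 to 3 with a line pair left out), while DESeq2 with and without the block, and edgeR without it, called MAVS. MAVS, an adaptor of RNA sensing, was at 29.1 ± 3.12 and 22.3 ± 2.59 CPM (-0.38, SE 0.10, adjusted p = 0.0974 in edgeR's quasi-likelihood test), lower in all 5 pairs without overlap, and at -0.45 without pair 5. FUNDC1, a mitophagy receptor, had a log2 fold change of 0.16 (SE 0.07).

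BAX is a known target gene of p53. Of 19 genes for p53 and its targets, 18 were tested and edgeR called 0, with 6 at an unadjusted p under 0.05 (1 without pair 2, and 4 to 6 without another), while DESeq2 called 0 with the block and SESN1 and XPC without it. Of the 18 there were 7 with a log2 fold change above 0 and 11 below, with a median of -0.03. SESN1, a stress-induced regulator of mTORC1, stood at 74.5 ± 5.24 and 94.1 ± 18.2 CPM (0.32, SE 0.09, adjusted p = 0.129 in edgeR's quasi-likelihood test), higher in 4 of 5 pairs, and at 0.36 without pair 5. XPC, a DNA damage sensor, stood at 37.8 ± 1.501 and 32.5 ± 3.02 CPM (-0.22, SE 0.07, adjusted p = 0.169 in the same test), lower in all 5 pairs without overlap, and at -0.26 without pair 5.

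Genes beside the members on the chromosome were taken from GENCODE 29. Of 84 tested genes within 500 kb of a member, 0 had an adjusted p under 0.05 in edgeR's quasi-likelihood test and 9 an unadjusted p under 0.05 (8, 5, 9, 11 and 13 when line pair 1, 2, 3, 4 or 5 was left out), and DESeq2 called 0 when line numbers were blocked and 4 when they were not, beside 219 and 726 of all 16756. Around BAX, 34 genes were tested, 2 of them with an unadjusted p under 0.05 (1 to 4 with a line pair left out) beside 16.2% of all genes, and their median log2 fold change was -0.01. NUCB1, the nearest on the lower side at -31.4 kb, had a log2 fold change of -0.08 (SE 0.06), and on the upper side AC026803.2, at 2.18 kb, had -0.03 (SE 0.28). The 34 ran from -0.13 for PPP1R15A to 0.36 for HSD17B14, both named after their values were seen, beside -0.58 for BAX. Of the 34, 16 were above 0, and without pair 5 there were 9, with a median of -0.06 and a range from -0.26 to 0.27. Around VDAC1, 8 of 10 tested neighbours were above 0 (median 0.12), around VDAC2 3 of 6 (0.03), around VDAC3 6 of 13 (-0.01), around BOK 11 of 17 (0.01) and around BAK1 2 of 4 (-0.10). Without pair 5 these were 9 (0.12), 4 (0.01), 6 (0.00), 8 (-0.01) and 2 (-0.18). Next to VDAC3, POLB had a log2 fold change of 0.24 (SE 0.06, adjusted p = 0.111 in edgeR's quasi-likelihood test) and SLC20A2 one of -0.19 (SE 0.06, adjusted p = 0.160 in the same test). Beside VDAC2, SAMD8 was at -0.01 (SE 0.07) and COMTD1 at 0.12 (SE 0.11), beside VDAC1 C5orf15 at 0.00 (SE 0.07) and AC008608.2 at 0.26 (SE 0.21), and beside BOK STK25 at 0.00 (SE 0.07) and THAP4 at 0.04 (SE 0.05). Without pair 5, COMTD1 and AC008608.2 were both at 0.01, STK25 at -0.08 and HSD17B14 at 0.27.

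**Figure D5:**
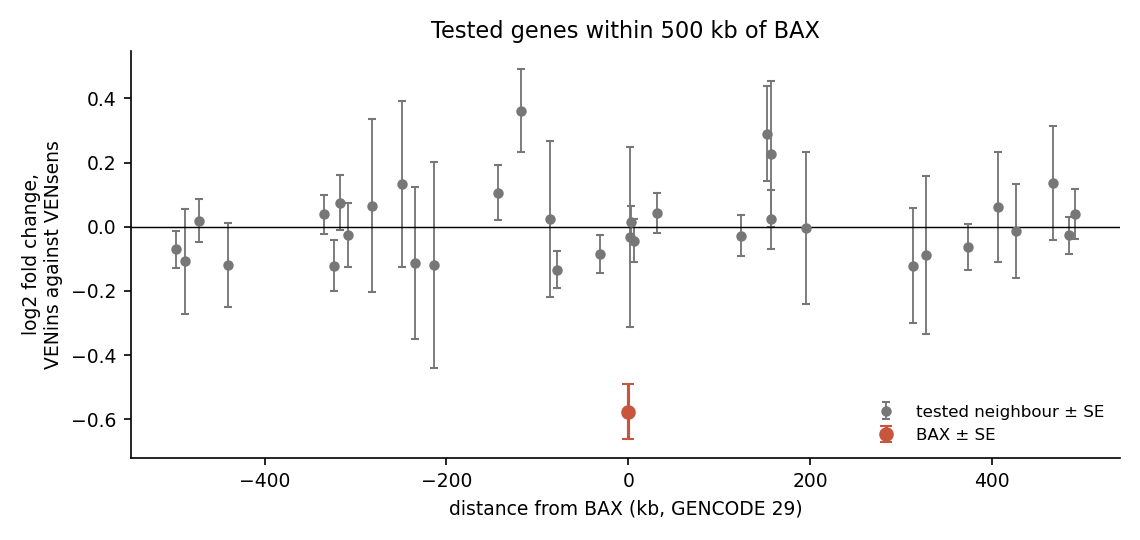
Log2 fold change ± SE (vertical axis) of the 34 tested genes within 500 kb of BAX against their distance from BAX in kb (horizontal axis). BAX, in red at -0.58, lies below its neighbours, which lie between -0.13 and 0.36 with all line pairs.

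The genes whose pattern was most like that of each member were found by Pearson's r of log2 CPM over the 10 libraries, among 8799 protein-coding genes with a mean of at least 10 CPM. These r include the difference between the conditions, are picked as the highest of many and are given as a description only. For BAX they were CLCN6, an endosomal chloride transporter (r = 0.91), BTBD9 (r = 0.90) and GGA2, an adaptor of Golgi trafficking (r = 0.88). Over deviations from the condition means, TCEAL1 was nearest to BAX (r = 0.96), although over the 10 libraries its r was -0.12. For BAK1 they were COMMD7 (r = 0.92), CCND3, which encodes cyclin D3 (r = 0.87), and PXN, which encodes paxillin (r = 0.87), and COMMD7 was also nearest over deviations (r = 0.89). VDAC1 was followed most closely by NDC80, a kinetochore gene (r = 0.96), CDKN3 (r = 0.95) and NUCB2 (r = 0.95), with PRICKLE2 nearest over deviations (r = 0.96). VDAC2 was followed by NAP1L1, a histone chaperone (r = 0.95), MBD4 (r = 0.94) and RPL9 (r = 0.93, and 0.96 over deviations). VDAC3 was followed by GEMIN7, of the SMN complex (r = 0.98, and 0.97 over deviations), CRLS1, the cardiolipin synthase (r = 0.98), and ADI1 (r = 0.98). No gene appeared for more than 1 member.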

How the data were processed

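RNA of 10 RS4;11 lines was sequenced, 1 library per line. The authors deposited, for each library, raw counts of reads per Ensembl gene identifier, without normalization; the submitters' notes name Bowtie2 2.3.5.1, HTSeq 0.9.1 and GRCh37. The annotation release and the strand setting are not given in the sources used here. Summary lines, which name no gene, stayed out of library sizes, and took 24.6% to 26.2% of the reads for low alignment quality, 9.39% to 10.2% not aligned, 7.29% to 7.78% outside genes and 3.69% to 3.98% on several genes.

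The counts were fitted with edgeR 4.0.16 in R 4.3.3 (filterByExpr with a minimum count of 10, TMM, quasi-likelihood F test with the line number as block, Benjamini-Hochberg adjustment over all 16756 genes, threshold 0.05); DESeq2 1.42.0 was an alternative. Standard errors were derived from the F statistic, and log2 CPM used a prior count of 2. Steps were tested on simulated counts. Names, positions and exon lengths came from GENCODE 29, which covers 52526 of 63677 identifiers; TOMM70 was matched through an older name.

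The members and gene lists were chosen with earlier results of these data known. Named genes are the members, list genes called or otherwise those with the 2 smallest p, all tested survival and BH3-only genes, the nearest tested neighbours, copies named after a member, the most abundant markers and the genes most like each member.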

Additional observations from a re-analysis of the deposited data

How the results depend on the processing

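The log2 fold changes of the 5 tested members moved by less than the SD between line pairs under all alternatives, 14 each and 13 for BAX, which has no annotated copy (scaling, filters, DESeq2, no block, copies' counts added, each line pair left out, and per-library trends with transcript length and GC content removed, which was added after seeing the data). They ranged from -0.66 to -0.48 for BAX, 0.07 to 0.14 for BAK1, 0.15 to 0.29 for VDAC1, 0.14 to 0.19 for VDAC2 and 0.15 to 0.21 for VDAC3. Leaving out a single line pair can hardly move a mean difference by the SD between pairs. Those settings could therefore hardly fail, and only the ranges are informative for them. The log2 difference of the BAX to BAK1 ratio ranged from -0.75 to -0.56 over 7 alternatives, without the change of length, which cancels from it. On the median transcript length, the share of BAX in the effector trio differed by -5.79 percentage points in place of -10.9; the lengths themselves differ by construction.

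The number of genes called, 33 in edgeR, was 149 with no replicate block (31 shared), 664 with no filter on low counts, 219 in DESeq2 with the block and 726 without it, 187 with length and GC trends taken out (88 higher and 99 lower, beside 6 and 27), and 6 to 331 with a line pair left out. Of the pathway genes, 1 was called with no replicate block, and 0 to 2 with a line pair left out; of the neighbours, DESeq2 without the block called 4, and 0 in the other alternatives. The causes were not tested. Line numbers did not pair the samples in the data: deviations of same-numbered lines had r from -0.10 to 0.03, and in none of the 5 pairs did a line correlate best with its own number. The block was kept because the study describes a paired analysis. DESeq2 called 3 pathway genes with the replicate block and 6 without.

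At 1 to 11 counts per library, depth limits BOK, which has no fitted value.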

Other observations

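On the side of BAK1 that faces the major histocompatibility complex, 17 of the 21 protein-coding genes within 500 kb were listed at 0 in all 10 libraries and 0 were tested, whereas of 6 on the other side 0 were at 0 and 3 were tested. RPS18, a ribosomal protein gene that every cell uses and that was named after its value was seen, held 3 counts over the 10 libraries together. A value of 0 on that side therefore cannot be read as absent expression, and the neighbours of BAK1 could be described on 1 side only. BAK1 borders this stretch, and whether its own level is complete was not tested. On the other side, ITPR3 had a log2 fold change of -0.42 (SE 0.33) at 0.609 and 0.445 CPM, and of -0.56 (SE 0.38) without line pair 5. UQCC2 was at 0.05 (SE 0.16) and LEMD2 at 0.05 (SE 0.06). SLC25A6 and TOMM6 of the pathway lists were also listed at 0 in all libraries. GGNBP1 overlaps BAK1 on the opposite strand and held 7 to 18 counts per library.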
